A study of Mus musculus with 16 samples.

Results

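The genes described here are 9 protein-coding genes that share the distal part of mouse chromosome 6 with Resf1: Slco1a5, Fgfr1op2, Tm7sf3, Med21, Stk38l, Arntl2, Ppfibp1, Caprin2 and Etfbkmt. They were chosen as neighbors of Resf1, and they are 9 of the 23609 genes measured. The paper that reported these tumors names Arntl2, Etfbkmt, Fgfr1op2 and Slco1a5 among candidates at the peak of a metastasis locus that also holds Resf1. It reached those candidates by position and by the association of tumor expression with metastasis-free survival. According to the paper, earlier work established Arntl2 as a metastasis susceptibility gene, and unpublished studies did not back Etfbkmt. Fgfr1op2 and Slco1a5 had not yet been evaluated. Tm7sf3, Med21, Stk38l, Ppfibp1 and Caprin2 are not named in it. The question was whether any of the 9 changed in tumors in which Resf1 is trapped. It was also asked whether any of the 9 followed the level of Resf1 from tumor to tumor. All 9 passed the filter on low values, which kept genes whose mean over the tumors reached 10.

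The RNA came from mammary tumors of mice with the MMTV-PyMT transgene. In it the mouse mammary tumor virus promoter drives the polyoma middle T antigen in mammary epithelium. The transgene came from mice on an FVB background. The 2 groups were littermates, wildtype MMTV-PyMT and MMTV-PyMT/Resf1 +/- compound animals. The latter carry 1 copy of a lentiviral enhancer/gene trap from a line on a C57BL/6 background. The trap sits in the first exon of Resf1, makes an EGFP-cre fusion and truncates the Resf1 message. In the paper the tumor-bearing mice are first-generation offspring of PyMT and gene trap mice. Wildtype littermates of that cross would carry C57BL/6 genome as well. All gene trap tumors come from the 1 trap line, and whether they kept the untrapped copy of Resf1 was not tested here. Any stretch of chromosome 6 that travels with the trap cannot be told apart from the trap itself. Values of 5 wildtype and 5 gene trap tumors were used, each from a different animal. Each value is an estimated count normalized by the authors, so it is a level relative to the other tumors and not a number of reads. The depth behind each value is unknown.

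Linkage mapping points to a stretch of chromosome and not to a gene, and genes within such a stretch are inherited together whether or not they act. Resf1, also called retroelement silencing factor, is known from mouse embryonic stem cells, where it takes part in the silencing of retroelements. Its neighbors have unrelated functions. Arntl2 is a partner of Clock in the circadian clock, Med21 is a subunit of Mediator, which links transcription factors to RNA polymerase, and Stk38l is an NDR kinase related to the Lats kinases of the Hippo pathway. Fgfr1op2 is a component of STRIPAK phosphatase complexes, Ppfibp1 is a liprin scaffold of the cell edge, Caprin2 is an RNA-binding protein of the Caprin family, Etfbkmt methylates the beta subunit of the mitochondrial electron transfer flavoprotein, Slco1a5 is an organic anion transporter, and Tm7sf3 is a multi-pass membrane protein.

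In the gene order of GENCODE mouse release 21, Etfbkmt is the nearest of the 9, 2 coding genes before Resf1 with Amn1 between them, and Caprin2 is 6 coding genes away. Ppfibp1, Arntl2, Stk38l, Med21, Tm7sf3 and Fgfr1op2 form a cluster 18 to 24 coding genes away, and Slco1a5 lies 52 coding genes away. Bicd1 is the 1 coding gene listed after Resf1 on the chromosome. No coordinates of genes are given because the build named in the submitters' processing notes is mm39 and the annotation used here is for GRCm38.

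Sequences just before the annotated starts show how different the promoters of these genes are. RefSeq windows of build GRCm38.p6 were found for 9 of the 10 genes, Tm7sf3 having no entry, with 11 windows in all. The 250 bases before the start were searched on both strands. Here the 9 genes are Resf1 and the neighbors other than Tm7sf3. A gene counts if any of its windows has a match, while the percentages are of single windows, so the 2 are not alike. The letters CCAAT were found for 5 of the 9 genes, for Slco1a5 in 1 of its 2 windows only, and in 33.8% of all such windows of the genome. GGGCGG was found for 7 genes and in 32.7% of all windows. TGACGTCA was found for Med21 and Stk38l, which are next to each other, and in 1.5% of all windows. CACGTG, the letters of an E-box of the kind that Clock and its partners bind, was found for 0 of the 9 genes and in 6.0% of all windows. A G4-type stretch, 4 runs of at least 3 G with 1 to 7 bases between them, was found for Med21 alone of the 9 and in 16.7% of all windows. A match of letters is a description of these windows only. The sequences below are those of Resf1, because the trap sits just after it, and of 3 neighbors, Stk38l, Fgfr1op2 and Ppfibp1. These 3 were picked after their values were seen, from pairs of neighbors with an unadjusted permutation p of r under 0.05. Caprin2 and Tm7sf3 are in such pairs as well, but the sequence of Caprin2 is not shown and Tm7sf3 has no entry. Capitals mark the matches named above, on either strand. Each sequence is written 5′ to 3′ on the strand of its gene and it ends at the annotated start.
Resf1, chr6:149309164-149309413, + strand: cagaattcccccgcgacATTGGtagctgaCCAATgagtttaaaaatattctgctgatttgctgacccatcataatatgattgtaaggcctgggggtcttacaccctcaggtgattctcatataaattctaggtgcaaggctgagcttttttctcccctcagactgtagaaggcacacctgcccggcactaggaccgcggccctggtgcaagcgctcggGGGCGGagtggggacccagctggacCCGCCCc
Stk38l, chr6:146724680-146724929, + strand: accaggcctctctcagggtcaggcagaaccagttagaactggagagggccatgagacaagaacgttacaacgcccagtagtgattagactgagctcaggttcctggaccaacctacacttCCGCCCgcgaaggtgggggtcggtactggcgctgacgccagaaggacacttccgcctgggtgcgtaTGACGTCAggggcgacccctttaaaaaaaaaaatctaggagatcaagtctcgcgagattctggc
Fgfr1op2, chr6:146577653-146577902, + strand: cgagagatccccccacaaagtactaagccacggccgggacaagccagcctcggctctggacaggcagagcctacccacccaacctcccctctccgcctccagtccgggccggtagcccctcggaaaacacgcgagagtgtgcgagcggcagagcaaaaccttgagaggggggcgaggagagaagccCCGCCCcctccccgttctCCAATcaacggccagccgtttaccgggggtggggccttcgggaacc
Ppfibp1, chr6:146888244-146888493, + strand: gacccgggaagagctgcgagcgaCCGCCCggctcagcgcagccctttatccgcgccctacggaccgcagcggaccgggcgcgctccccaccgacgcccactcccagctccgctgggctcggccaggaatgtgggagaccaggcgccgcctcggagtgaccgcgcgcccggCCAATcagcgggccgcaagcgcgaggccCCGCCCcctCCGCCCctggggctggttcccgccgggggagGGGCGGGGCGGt

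Resf1 (ENSMUSG00000032712) itself had normalized values of 4215, 4397, 3881, 4487 and 3517 in the 5 wildtype tumors and of 4029, 3066, 3686, 3392 and 3409 in the 5 gene trap tumors. The groups overlapped, since the highest gene trap tumor lay above 2 of the wildtype tumors, and 3 gene trap tumors lay below the lowest wildtype tumor. The wildtype mean was 4099 ± 400 and the gene trap mean 3516 ± 361 (SD, n = 5 each). On the log2 scale the fold change was -0.22, with a 95% confidence interval from -0.42 to -0.02, and it did not pass the adjustment over all genes (limma, adjusted p = 0.99972, unadjusted p = 0.0313). The exact two-sided permutation test over the tumors gave p = 0.0635, where the smallest p that this design allows is 0.00794. The values are per gene, and how reads of a shortened message were counted is not known. Fewer cells that express a gene and less RNA per cell cannot be told apart in these whole tumors, for Resf1 and for its neighbors alike.

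One gene trap tumor stood apart before any comparison of the neighbors. On the first principal component of the tested genes, which held 31.1% of the variance, gene trap replicate 2 had a score of 91.8 and the other 9 tumors had scores between -18.6 and -4.78. It also had the lowest Resf1 value of the 10 tumors. Without it, the log2 fold change of Resf1 was -0.17 (95% confidence interval -0.36 to 0.02, unadjusted p = 0.0684).

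Of the neighbors, 0 of 9 passed an adjusted p of 0.05 between gene trap and wildtype tumors, and 0 of 9 passed an unadjusted p of 0.05. Over all 21034 genes tested, 0 passed the adjusted threshold (0.0%) and 479 passed the unadjusted one (2.28%), so the members' count is read against a background that is itself close to empty. In all 9 genes the ranges of the 2 groups overlapped. Groups of 5 and 5 tumors separate fully in only 0.00794 of the possible arrangements. The share over all genes was not counted, so this overlap is a description of the 9 only. Log2 fold changes were below 0 for 7 neighbors and above 0 for 2, with a median of -0.04, beside a median of 0.0047 and an interquartile range of -0.09 to 0.10 over all genes tested. Without gene trap replicate 2 the members' median was -0.0037, and it lay between -0.06 and -0.0037 as each tumor was left out.

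**Figure D1:**
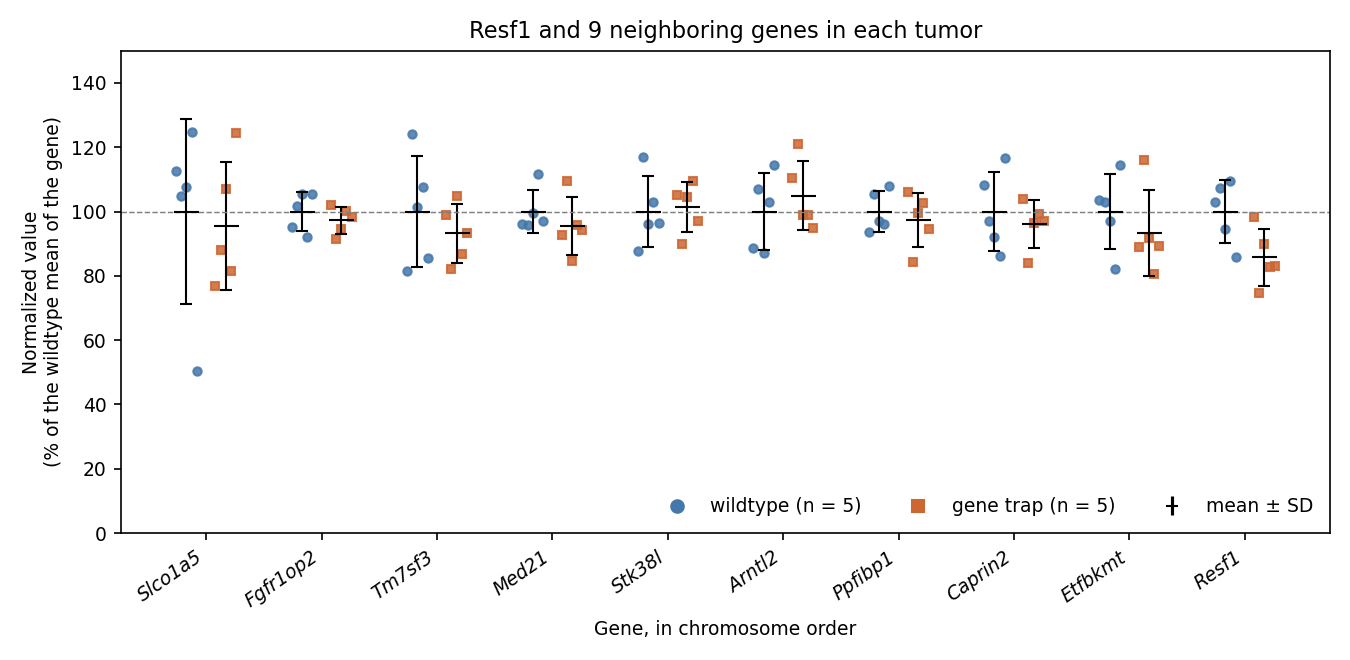
Normalized value of Resf1 and its 9 neighbors in each tumor, as a percentage of the wildtype mean of the gene on the vertical axis, with genes in chromosome order on the horizontal axis, circles for 5 wildtype and squares for 5 gene trap tumors, and black bars for mean ± SD. The 2 groups overlap for every gene shown, and the lowest Slco1a5 point is wildtype replicate 5, with a value of 737.

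Etfbkmt (ENSMUSG00000039958), the nearest neighbor, had values of 212, 211, 199, 168 and 235 in wildtype tumors and of 183, 238, 188, 165 and 183 in gene trap tumors. Both groups spanned nearly the same range, with gene trap replicate 2 the highest of all 10 tumors. The means were 205 ± 24.2 and 191 ± 27.5 (SD, n = 5 each). Its log2 fold change was -0.10 (95% confidence interval -0.39 to 0.19), and without gene trap replicate 2 it was -0.18 (-0.44 to 0.07). Whether reads were counted by strand is not given in the sources used here, and Etfbkmt lies on the strand opposite to that of its neighbor Amn1.

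Caprin2 (ENSMUSG00000030309), the other member on the Resf1 side of the cluster, had values of 567, 507, 482, 450 and 611 in wildtype and 544, 440, 505, 519 and 509 in gene trap tumors. The gene trap values lay within the wildtype range except for replicate 2, which was the lowest of the 10 tumors. Its log2 fold change was -0.05 (95% confidence interval -0.27 to 0.17), and without gene trap replicate 2 it was -0.0037.

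The 6 genes of the cluster also overlapped between the groups. Arntl2 (ENSMUSG00000040187), the clock gene, had values of 318, 384, 312, 370 and 411 in wildtype and 396, 435, 355, 355 and 341 in gene trap tumors. Gene trap replicate 2 was the highest tumor, and the other 4 gene trap tumors fell within the wildtype range. Arntl2 had the largest positive log2 fold change of the 9, at 0.07 (95% confidence interval -0.17 to 0.31), and without gene trap replicate 2 it was 0.02.

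Med21 (ENSMUSG00000030291) had values of 895, 890, 925, 1039.8 and 901 in wildtype and 861, 1019, 788, 891 and 876 in gene trap tumors. In each group 1 tumor stood above the others, wildtype replicate 4 and gene trap replicate 2, and 3 gene trap tumors were below the lowest wildtype tumor. Med21 had a log2 fold change of -0.07 (95% confidence interval -0.25 to 0.11), and of -0.12 without gene trap replicate 2.

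Stk38l (ENSMUSG00000001630) had values of 877, 1171, 962, 1030.4 and 964 in wildtype and 1053, 900.2, 1045, 1097 and 972 in gene trap tumors. All 5 gene trap tumors fell within the wildtype range. Its log2 fold change was 0.02 (95% confidence interval -0.18 to 0.22), it was 0.06 without gene trap replicate 2, and it took the opposite sign, -0.0059, when values were scaled to the column total.

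Fgfr1op2 (ENSMUSG00000040242) was the steadiest of the 9 genes over the tumors. Its values were 2445, 2615, 2705, 2366 and 2708 in wildtype and 2622, 2348, 2427, 2569.9 and 2522 in gene trap tumors, and the highest of the 10 was 1.15 times the lowest. Its log2 fold change was -0.04, with a 95% confidence interval from -0.18 to 0.10, which as a fold runs from 0.882 to 1.07, and without gene trap replicate 2 it was -0.02.

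Ppfibp1 (ENSMUSG00000016487) had values of 3352, 3776, 3483, 3442 and 3873 in wildtype and 3803, 3019.7, 3567, 3677 and 3395 in gene trap tumors. Gene trap replicate 2 was the lowest tumor, and without it the log2 fold change of -0.04 (95% confidence interval -0.21 to 0.13) became 0.01. Tm7sf3 (ENSMUSG00000040234) had values of 706, 1075, 878, 932 and 739.8 in wildtype and 858, 710.5, 909, 751 and 809 in gene trap tumors. The gene trap tumors lay within the wildtype range, which was wider, and the log2 fold change was -0.09 (95% confidence interval -0.35 to 0.17), or -0.04 without gene trap replicate 2.

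Slco1a5 (ENSMUSG00000063975), the most distant member, varied most. Its values were 1646, 1534, 1573, 1827 and 737 in wildtype and 1124, 1289.9, 1568, 1191 and 1821 in gene trap tumors, a range of 2.48 times from the lowest to the highest tumor. The lowest tumor was wildtype replicate 5, and the other 4 wildtype tumors lay between 1534 and 1827, above 3 of the gene trap tumors. Its log2 fold change was -0.02 with the widest interval of the 9 genes, -0.51 to 0.47, without gene trap replicate 2 it was -0.00035, and without wildtype replicate 5 it was -0.25 (95% confidence interval -0.56 to 0.05, unadjusted p = 0.0906). Wildtype replicate 5 also had the highest summed level of the skeletal muscle markers measured, Acta1, Ckm and Tnnt3, at 8453 beside 532 to 2537 in the other wildtype tumors and 1317 to 3987 in gene trap tumors. Its part in the Slco1a5 value was not tested. Slco1a5 has close paralogs, and reads could be split between them. Of these, Slco1a6 was in the table, at a mean of 21.8 over the 10 tumors beside 1431 for Slco1a5.

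**Figure D2:**
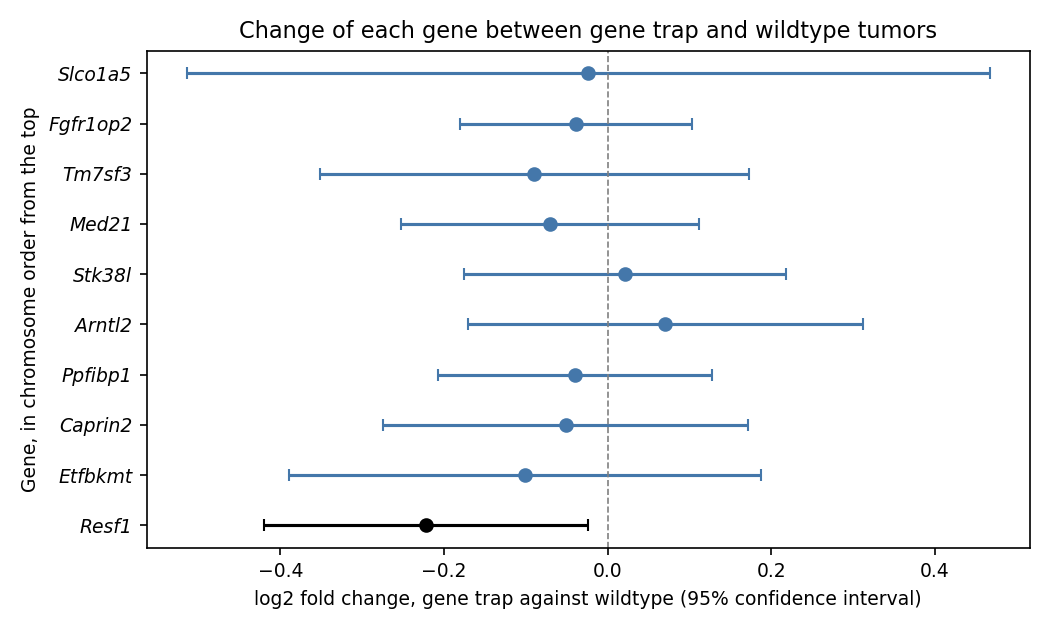
Log2 fold change of each gene, gene trap against wildtype tumors, on the horizontal axis as points with 95% confidence intervals from limma (5 tumors in each group), with genes in chromosome order from the top. The interval of Resf1 runs from -0.42 to -0.02, and those of the 9 neighbors all cross 0.

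Levels between genes were compared per kilobase of exon, using the union of exons of GENCODE release 21, over all 10 tumors. By this measure Fgfr1op2 was highest at 548 ± 28.6 per kilobase (SD, n = 10). Resf1 at 395 ± 49.1 and Slco1a5 at 384 ± 92.1 came next and did not differ beyond their spread. Ppfibp1 followed at 318 ± 23.1. Med21 at 258 ± 20.8 and Tm7sf3 at 243 ± 34.1 were again within their spread of each other, and Stk38l was at 206 ± 18.4. The lowest levels were those of Etfbkmt at 79.4 ± 10.2, Arntl2 at 64.6 ± 6.92 and Caprin2 at 36.3 ± 3.64. The order depends on the gene model, since by the longest coding transcript Med21 came first at 1116 per kilobase and Fgfr1op2 came after it at 879.

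Each neighbor was also set against Resf1 within the same tumor, as the log2 ratio of the 2 values. The ratio was higher in gene trap tumors for 9 of 9 neighbors, with log2 changes from 0.12 for Etfbkmt to 0.29 for Arntl2. This direction is shared by 87.8% of all genes tested, whose median log2 change in the ratio was 0.23, and Resf1 is the denominator of every ratio. No neighbor passed the adjusted threshold (limma, smallest adjusted p = 0.347, for Stk38l), and 0 of 9 passed at an unadjusted p of 0.05, beside 0.0% and 13.8% of all 21033 genes other than Resf1. For Stk38l the change was 0.24 (95% confidence interval -0.01 to 0.49), and the exact permutation test over tumors gave p = 0.0238 for this 1 ratio, while limma gave an unadjusted p of 0.0573. The corresponding values for Arntl2 were 0.29 (-0.05 to 0.64), an exact permutation p of 0.0794 and an unadjusted p of 0.0902.

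The second question was whether a neighbor followed Resf1 from tumor to tumor. Pearson's r of the log2 values over the 10 tumors was positive for 7 neighbors and negative for 2, with a median of 0.08, while the median over all 21033 genes was -0.01 and the interquartile range was -0.29 to 0.29. By the permutation test, 0 of 9 neighbors passed an adjusted p of 0.05 and 0 of 9 passed an unadjusted p of 0.05. Over all genes 0 passed the adjusted threshold (0.0%, smallest adjusted p = 0.252) and 1906 passed the unadjusted one (9.06%). Without gene trap replicate 2, 2.84% of genes passed the unadjusted threshold.

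Tm7sf3 was closest to Resf1, with r = 0.63 (permutation p = 0.0501, adjusted p = 0.548) and Spearman's rho = 0.56 (permutation p = 0.0958, adjusted p = 0.988). Its r was 0.64 within the groups, 0.53 without gene trap replicate 2, and 0.47 without the 2 tumors farthest from the median of Resf1, wildtype replicate 4 and gene trap replicate 2. It ranged from 0.52 to 0.88 as each tumor was left out, the highest value being that without wildtype replicate 1, which had the lowest Tm7sf3 value of the 10 tumors beside a high Resf1 value. Of all genes, 96.1% had a lower r with Resf1 than Tm7sf3.

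Slco1a5, Ppfibp1 and Stk38l had smaller positive correlations. For Slco1a5, r was 0.37 (permutation p = 0.295, adjusted p = 0.756) and rho was 0.41 (permutation p = 0.247). For Ppfibp1, r was 0.36 (permutation p = 0.315, adjusted p = 0.766) and rho was 0.15 (permutation p = 0.684). For Stk38l, r was 0.33 (permutation p = 0.342, adjusted p = 0.782) and rho was 0.19 (permutation p = 0.606). The value of Ppfibp1 rested on gene trap replicate 2, since without that tumor r was -0.14. The value of Stk38l rested on single tumors as well, since r was 0.11 both without gene trap replicate 2 and without wildtype replicate 2, and it lay between 0.11 and 0.62 as each tumor was left out. Without the 2 tumors farthest from the median of Resf1 the 3 values were 0.27, 0.02 and 0.09.

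Caprin2, Fgfr1op2 and Med21 stood near 0. Their r values were 0.08 (permutation p = 0.829, adjusted p = 0.966), 0.07 (permutation p = 0.845, adjusted p = 0.969) and 0.01 (permutation p = 0.967, adjusted p = 0.995), and their rho values were 0.02 (permutation p = 0.973), 0.07 (permutation p = 0.868) and 0.05 (permutation p = 0.891). Without gene trap replicate 2 they were -0.34, -0.32 and 0.46, and without the 2 tumors farthest from the median they were -0.05, -0.02 and 0.11.

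Arntl2 and Etfbkmt were the 2 with a negative sign. For Arntl2, r was -0.32 (permutation p = 0.362, adjusted p = 0.792) and rho was -0.16 (permutation p = 0.655). For Etfbkmt, r was -0.26 (permutation p = 0.46, adjusted p = 0.841) and rho was -0.16 (permutation p = 0.659). Both signs rested on gene trap replicate 2, which had the lowest Resf1 and the highest Arntl2 and Etfbkmt of the 10 tumors, and without it r was 0.02 and 0.07. Within the groups r was -0.22 for Arntl2 and -0.62 for Etfbkmt (permutation p = 0.0807 for the latter, adjusted p = 0.804). Over all 10 tumors the nearest member, Etfbkmt, had a negative r and the most distant, Slco1a5, a positive one. The sign of Etfbkmt changed without gene trap replicate 2, so the contrast is not read as an effect of distance.

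**Figure D3:**
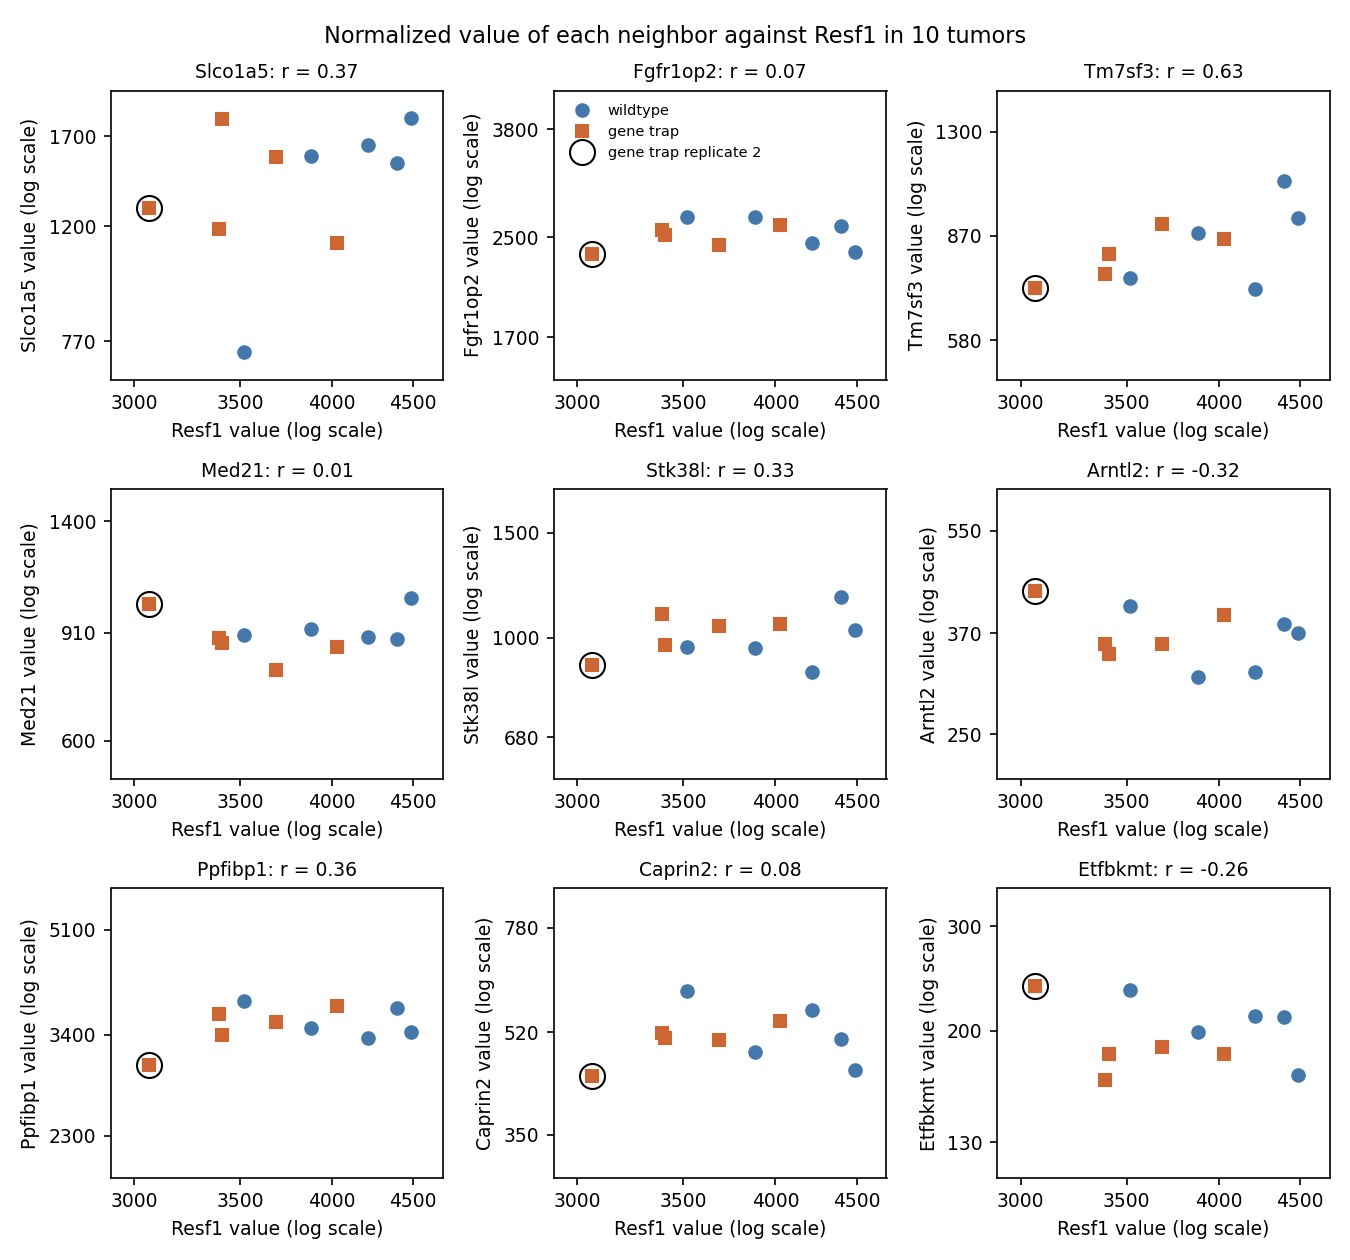
Normalized value of each neighbor (vertical axis, log scale, each panel spanning the same fold) against that of Resf1 (horizontal axis, log scale) in 10 tumors, circles for wildtype and squares for gene trap, with a ring around gene trap replicate 2. The 9 panels are in chromosome order with r above each, from -0.32 for Arntl2 to 0.63 for Tm7sf3.

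How the correlations came out also depended on the scaling of the columns. With values divided by the column total, r of the 9 neighbors with Resf1 lay between 0.14 and 0.77 with a median of 0.60, and the median over all genes was 0.36, so the signs of Arntl2 and Etfbkmt turned positive along with a shift of the whole table. The smallest adjusted p of any neighbor under any setting was 0.233.

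Among themselves the neighbors had correlations of both signs. Of the 36 pairs, 18 had a positive r, and the median was -0.02. Leaving out gene trap replicate 2 gave 19 positive pairs and a median of 0.08. The 8 pairs that are at most 2 coding genes apart had a median r of 0.09, between -0.35 and 0.75, beside -0.05 for the other 28 pairs. The same omission gave medians of 0.03 and 0.11, and single pairs moved further, Arntl2 and Ppfibp1 from an r of 0.04 to 0.83 and Stk38l and Arntl2 from 0.14 to 0.51. The pairs named here were chosen after their values were seen, and 4 of 36 had an unadjusted permutation p of r under 0.05. The share over all pairs of genes in the table was not computed. With Resf1, 9.06% of all genes passed this threshold, so the count of pairs is not read as a trait of the neighbors. Tm7sf3 and Stk38l had r = 0.75 (permutation p = 0.0133) and rho = 0.66 (permutation p = 0.0439), both being highest in wildtype replicate 2, and r was 0.69 without gene trap replicate 2 and 0.42 without the 2 tumors farthest from the Tm7sf3 median. Fgfr1op2 and Ppfibp1 had r = 0.73 (permutation p = 0.0137) and rho = 0.76 (permutation p = 0.0154), and r was 0.62 without gene trap replicate 2 and 0.58 without the 2 tumors farthest from the Fgfr1op2 median. Stk38l and Ppfibp1 had r = 0.66 (permutation p = 0.0352) and rho = 0.64 (permutation p = 0.0548), and Ppfibp1 and Caprin2 had r = 0.65 (permutation p = 0.0401) and rho = 0.52 (permutation p = 0.132), the r of the latter pair being 0.16 without the 2 tumors farthest from the Ppfibp1 median. The r values of these 2 pairs were 0.57 and 0.46 without gene trap replicate 2. Genes that lie next to each other did not all have a positive r. Tm7sf3 and Med21 had r = -0.15 (permutation p = 0.667), and Med21 and Stk38l had r = -0.30 (permutation p = 0.395). These r values were 0.07 and -0.11 without gene trap replicate 2. By Pearson's r the most negative pair was Slco1a5 and Arntl2, with r = -0.59 (permutation p = 0.071) and rho = -0.61 (permutation p = 0.0663), and r was -0.65 without gene trap replicate 2 and -0.41 without the 2 tumors farthest from the Slco1a5 median. By rho it was Slco1a5 and Ppfibp1, with rho = -0.67 (permutation p = 0.0392) and r = -0.48 (permutation p = 0.161). Without gene trap replicate 2 the r of that pair was -0.81 and that of Slco1a5 and Caprin2 was -0.75, but without the 2 tumors farthest from the Slco1a5 median they were 0.04 and 0.07, so both rest on those tumors.

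**Figure D4:**
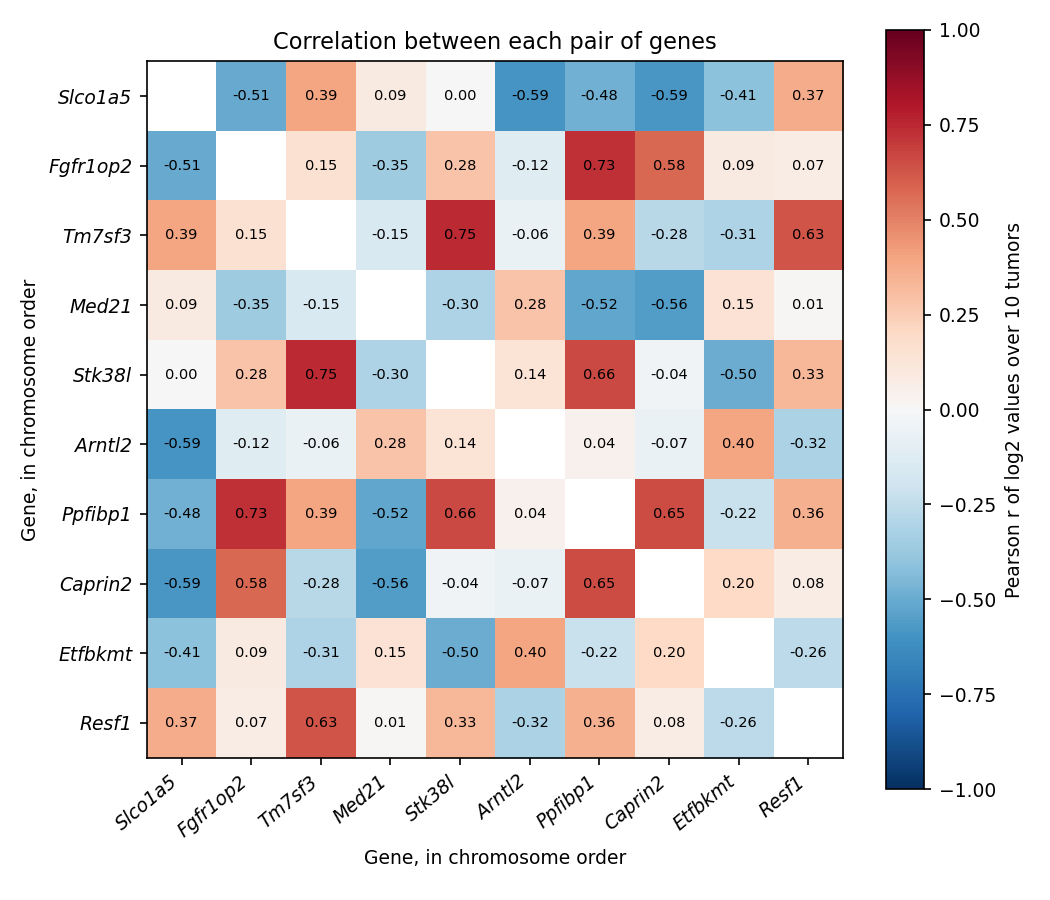
Pearson's r of log2 values over 10 tumors for each pair of the 10 genes, with genes in chromosome order on both axes and the color scale from -1 (blue) to 1 (red). Red cells such as Tm7sf3 with Stk38l (0.75) and blue cells such as Slco1a5 with Arntl2 (-0.59) both occur, and 18 of the 36 pairs of neighbors are above 0.

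The wider neighborhood of Resf1 was then examined. Within 10 Mb of Resf1 in the annotation, 96 other genes were in the table and 83 were tested, of which 48 had a log2 fold change below 0 and 35 above 0. Their median log2 fold change was -0.02, 0 of 83 passed an adjusted p of 0.05, and 0 of 83 passed an unadjusted p of 0.05, beside 2.28% of all genes. The median lay between -0.04 and 0.0061 as each tumor was left out, and it was above 0 without wildtype replicate 1. The correlation with Resf1 was positive for 52 of the 83 (62.7%, beside 48.9% of all genes), with a median r of 0.08, which lay between 0.02 and 0.18 as each tumor was left out, the lowest being that without gene trap replicate 2. An unadjusted permutation p of 0.05 was passed by 7 of 83 (8.43%), close to the 9.06% of all genes. All 7 were annotated as processed pseudogenes or antisense transcripts and none as protein-coding, and reads of pseudogenes may be shared with their parent genes. Bicd1, an adaptor of the dynein motor and the coding gene just after Resf1, had the smallest p of the window after Resf1. Its mean was 684 ± 38.7 in wildtype and 612 ± 62.6 in gene trap tumors (SD, n = 5 each), a log2 fold change of -0.16 (95% confidence interval -0.36 to 0.03, limma, unadjusted p = 0.0905, adjusted p = 0.99972), and its r with Resf1 was 0.54 (permutation p = 0.106). Amn1, on the other side of Resf1, had a log2 fold change of 0.02 (-0.24 to 0.28) and an r of -0.0024. The next smallest p values of the window belonged to 4732416N19Rik with a log2 fold change of 0.24 (unadjusted p = 0.096), to 1700126G02Rik with -0.69 (unadjusted p = 0.102), to the ribosomal pseudogene Rpl38-ps2 with -0.44 (unadjusted p = 0.102), which may share reads with its parent gene, and to the similar pseudogene Rps25-ps1 with -0.20 (unadjusted p = 0.115).

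**Figure D5:**
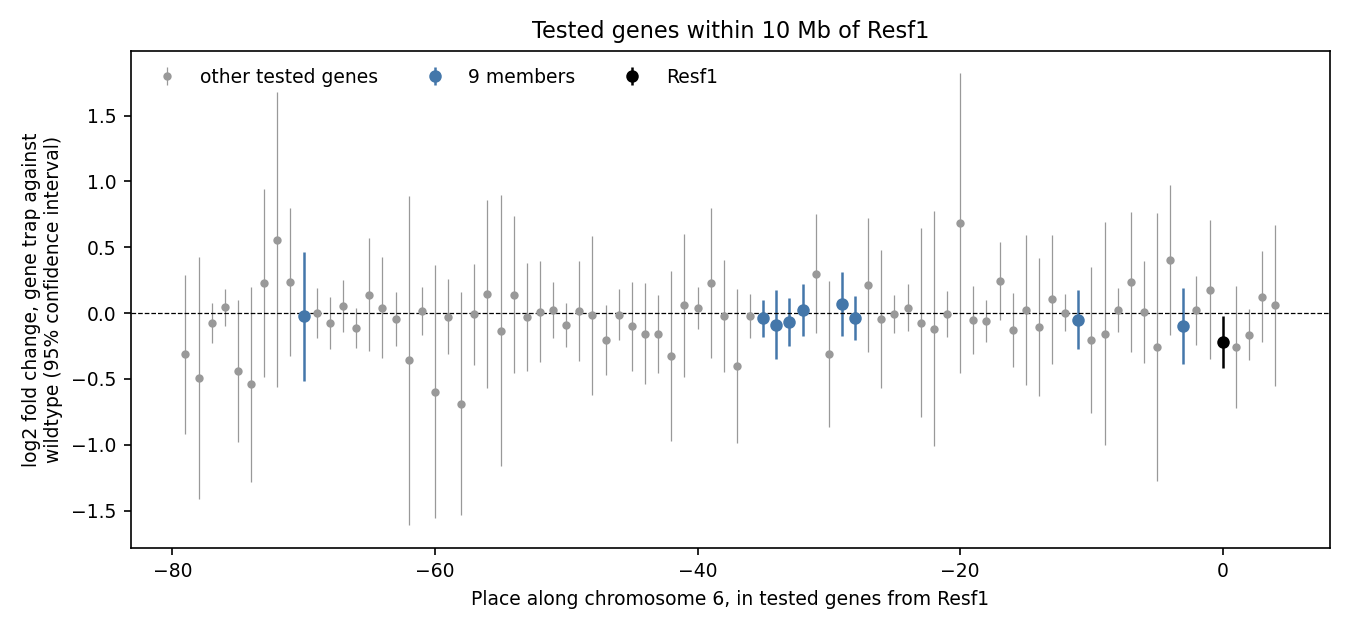
Log2 fold change of the tested genes within 10 Mb of Resf1, gene trap against wildtype (vertical axis, points with 95% confidence intervals), by place along chromosome 6 counted in tested genes from Resf1 (horizontal axis), with the 9 neighbors in blue, Resf1 in black and other genes in grey. The interval of Resf1 ends below 0, and those of the other 83 genes cross 0.

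The r values farthest from 0 with Resf1, of either sign, belonged to genes elsewhere in the genome. Because these genes were picked by r from 21033, their larger r says nothing about the neighbors. By the highest Pearson's r these were Pcdh11x (0.93), Aplp2 (0.92), Gm11246 (0.91), Flna (0.91) and Hapln3 (0.89), and by the lowest they were Gm16062 (-0.94), Zfp429 (-0.93), Rad9a (-0.93), Saxo2 (-0.92) and Mum1 (-0.91), each over 10 tumors. None of these 10 lies on chromosome 6, and without gene trap replicate 2 their r values stayed between 0.87 and 0.92 or between -0.92 and -0.86. The smallest adjusted p among them was 0.252, so they are listed by rank only.

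The partners of the neighbors were examined through lists of the complexes and pathways they belong to, with 114 genes tested. Bhlhe41, Etfrf1 and Slco1a6 of these lists are also among the genes within 10 Mb of Resf1. None passed an adjusted p of 0.05, and 1 of 114 (0.877%) passed an unadjusted p of 0.05, beside 2.28% of all genes. That gene was Ivd, an acyl-CoA dehydrogenase that hands electrons to the flavoprotein Etfbkmt acts on, at 2037 ± 148 in wildtype and 2295 ± 171 in gene trap tumors (SD, n = 5 each) and a log2 fold change of 0.17 (unadjusted p = 0.0414, adjusted p = 0.99972). In the same list Acads had -0.12, 6 of 10 genes were below 0, and the median was -0.0076.

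Over all genes tested, 48.6% had log2 fold changes below 0, and the counts of each list are given beside that share. Of the clock genes that work with Arntl2, 14 of 19 had log2 fold changes below 0, with a median of -0.06. The negative-limb genes Per1 and Per2, which repress Clock, had the smallest p values, with log2 fold changes of -0.34 (unadjusted p = 0.119) and -0.31 (unadjusted p = 0.132). The time of day at collection is not in the labels. Of the 32 other Mediator subunits and kinases listed with Med21, 17 were below 0 and the median was -0.02. Med1, which bridges to nuclear receptors, had 0.13 (unadjusted p = 0.0828), and Med22 had 0.18 (unadjusted p = 0.123).

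Among NDR and Hippo kinases and their cofactors, 5 of 11 were below 0 with a median of 0.0066, and Stk38, the close paralog of Stk38l, had 0.08 (unadjusted p = 0.187) and Stk3 had 0.08 (unadjusted p = 0.27). In STRIPAK, 7 of 15 were below 0 with a median of 0.01, led by the phosphatase scaffold Ppp2r1a at 0.15 (unadjusted p = 0.137) and Slmap at -0.10 (unadjusted p = 0.195). In the liprin list 7 of 12 were below 0 with a median of -0.02, with Ppfia2 at 0.52 (unadjusted p = 0.126) from a low level of 11.8 and 16.2 in the 2 groups, and Ppfibp2 at -0.15 (unadjusted p = 0.218). RNA granule genes had 2 of 9 below 0 and a median of 0.06, with Fxr2 at 0.13 (unadjusted p = 0.19) and Usp10 at 0.11 (unadjusted p = 0.22). Of the organic anion transporters 4 of 6 were below 0, with a median of -0.04, Slco2a1, a prostaglandin transporter, at -0.13 (unadjusted p = 0.232) and Slco1a6 at 0.24 (unadjusted p = 0.379).

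The tissue was checked against markers of the cells a mammary tumor can hold. The epithelial markers Epcam, Cdh1, Krt8, Krt18, Krt19, Cldn3 and Cldn4 were all measured, with summed values of 80502 to 105780 in wildtype and 82622 to 111410 in gene trap tumors. Of 30 marker genes tested over all cell types, 0 passed an unadjusted p of 0.05. The 3 basal markers Krt5, Krt14 and Trp63 summed to 3326 to 4334 in wildtype and 2779 to 4485 in gene trap tumors (exact permutation p = 0.119), and the fibroblast markers to 18271 to 38123 and 26317 to 57154 (exact permutation p = 0.524). The 4 endothelial markers summed to 2170.3 to 4035 and 1969 to 3658, the 4 macrophage markers to 4960 to 7462 and 5255 to 7243, the T cell markers to 46.6 to 121 and 41.0 to 188, and Adipoq, the adipocyte marker measured, to 147 to 573 and 50.8 to 286. In gene trap replicate 2 the epithelial sum was the highest and the endothelial sum the lowest of the 10 tumors, and their part in its values was not tested.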

How the data were processed

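Total RNA of mammary tumors was sequenced from stranded total RNA libraries after Trizol extraction. The labels describe 16 tumors, 8 per group. The deposited table has 16 columns, of which 10 carry the name of a labelled tumor and 6 carry none and were not used. The values are a signal: estimated counts per gene that the authors normalized by the median ratio method before they were deposited. The submitters' processing notes name Partek, STAR 2.7.8a, DESeq2 and build mm39 without their roles. The annotation and the strand setting of the counting are not given in the sources used here. Column totals lay between 31995078 and 42153593, whole reads could not be recovered, and intervals for counting error are therefore left out. A gene's level is normalized to the rest of its tumor, so a change shared by most genes would not be seen.

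Symbols were found for 22899 (97.0%) of 23609 gene IDs, and gene order came from GENCODE mouse release 21. A pseudocount of 1 was added before taking log2, and genes with a mean of at least 10 were fitted with limma 3.58.1 (R 4.3.3), with the 2 groups as the only factor, moderation along the mean-variance trend and Benjamini-Hochberg adjustment over all genes tested. Ratios to Resf1 were fitted the same way. Correlations with Resf1 were tested for every gene with 100000 two-sided permutations (SciPy 1.17.1, NumPy 2.4.6, Python 3.11.15), and single values with the exact permutation test over the 252 arrangements of 5 and 5 tumors. The fits were tested on simulated data. P-values judge a group difference or a correlation against the spread between these tumors.

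The members and lists were chosen with earlier results of these data known. Genes named beside the 9 neighbors were the 5 with the highest and the 5 with the lowest r with Resf1, the 5 genes of the window with the smallest p, the genes next to Resf1, and 2 genes per partner list with the smallest p. Alternatives were other pseudocounts, filters, scalings, weights, moderation without the trend, the replicate block, Spearman and within-group correlation, other windows and leaving out each tumor. A limma fit of each gene on Resf1 was added after seeing the data.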

Additional observations from a re-analysis of the deposited data

Results flagged for a closer look

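In 20 groups of 5 tumors, 10 genes in each of 2 genotypes, 2 tumors lay far from the other 4 of their group by Dixon's criterion, and chance alone marks about 1 in 20 groups. Slco1a5 was at 737.1 in wildtype replicate 5, where the gap to the next tumor was 0.731 of the range of the group, beside a critical value of 0.71. Med21 was at 1039.8 in wildtype replicate 4, with a gap of 0.765 of the range. Without wildtype replicate 4 the log2 fold change of Med21 was -0.03 (95% confidence interval -0.22 to 0.16) in place of -0.07.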

How the results depend on the processing

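No neighbor passed an adjusted p of 0.05 in its fold change, its ratio to Resf1 or its correlation with Resf1 under any setting run, where the smallest adjusted p values were 0.979, 0.174 and 0.233, and the counts of genes past the adjusted threshold stayed at 0 for the group comparison and for the correlation. The log2 fold change of Resf1 was -0.22 in the fit as reported, -0.18 with weights per tumor and -0.25 with scaling to the column total, and it lay between -0.28 and -0.17 as each tumor was left out. Of 90 fold changes under other settings 87 kept their sign, and the exceptions were Stk38l at -0.0059 with scaling to the column total and Ppfibp1 at 0.0076 and Caprin2 at 0.0080 with weights per tumor. Leaving out each tumor gave Slco1a5 -0.25 to 0.073, Stk38l -0.025 to 0.080, Ppfibp1 -0.072 to 0.011, Caprin2 -0.10 to 0.0065, and a ratio of Etfbkmt to Resf1 of -0.0088 to 0.22. Of 81 correlations under other settings 73 kept their sign. Those that did not were Arntl2 at 0.14 and Etfbkmt at 0.16 with scaling to the column total, Fgfr1op2 at -0.14, Med21 at -0.27 and Caprin2 at -0.060 within groups, and Etfbkmt at 0.39, Fgfr1op2 at -0.023 and Caprin2 at -0.047 without the 2 tumors farthest from the median of Resf1. Leaving out each tumor gave r of -0.43 to 0.021 for Arntl2, -0.49 to 0.071 for Etfbkmt, -0.32 to 0.37 for Fgfr1op2, -0.40 to 0.46 for Med21, -0.14 to 0.51 for Ppfibp1 and -0.34 to 0.37 for Caprin2. The median r of the window was 0.49 in place of 0.08 with scaling to the column total, and the causes of these shifts were not tested. At an unadjusted p of 0.05 the group comparison gave 479 genes, 304 with scaling to the column total and 307 without wildtype replicate 4, and the correlation gave 1906, 4443 with scaling to the column total, 921 with Spearman's rho, 2005 with the added limma fit, 598 without gene trap replicate 2 and 381 without the 2 farthest tumors. In the window 0 genes passed it, 1 with weights per tumor and 0 to 3 as each tumor was left out. With scaling to the column total, 56.6% of all genes were below 0 beside 48.6%.

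Same-numbered tumors are different animals, and the sample titles give no pairing beyond the number. The correlation of their deviations averaged -0.0098 over 5 pairs, and 2 of the 10 tumors correlated best with their own number. So few pairs cannot show whether a litter or batch was shared. With the replicate block the log2 fold change of Resf1 was -0.22, that of the members' median -0.04, 0 genes passed the adjusted threshold and 426 the unadjusted one, and no call changed. Tests on raw counts were not run because the values are normalized. The main limits are 5 tumors per group, 1 trap line, an unknown depth and a modest difference in Resf1 itself.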
